A study of Mus musculus with 11 samples.

Results

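The nuclear-encoded subunits of the mitochondrial respiratory chain and of ATP synthase were examined in gonadal white adipose tissue. Members were chosen by gene name, as every locus whose listed genes included a symbol starting with Ndufa, Ndufb, Ndufc, Ndufs or Ndufv, one of the 4 Sdh genes, or a symbol starting with Uqcr, with Cox and a digit from 4 to 8, or with Atp5. This gave 90 of 42815 loci. Of these, 81 encode subunits of an enzyme complex. The other 9 matched by name but encode no such subunit (assembly factors, paralogues, a pseudogene and proteins named after ATP synthase) and are described apart. Cox4i1 and Ndufb1 were not analysed here.

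The 14-3-3ζKO tissue came from 5 samples of mice carrying null alleles of Ywhaz, the gene of the scaffold protein 14-3-3ζ, and the wild-type tissue from 6 samples of littermate controls per the study's methods. All were male C57Bl/6 mice of 50 weeks kept on standard chow per the labels, but the paper names a low-fat diet beside its gene analysis of this depot, and which diet these animals ate is unsettled. The null alleles were not restricted to fat. RNA of the whole fat pad was sequenced, so fewer cells of a type and less RNA per cell cannot be told apart. Values are FPKM, in which fragment counts are divided by transcript length and by library size. For the 90 members the deposited table holds 1 pooled FPKM per genotype and no value per library, so no member has a replicate error, a standard deviation or a test, and "higher" and "lower" state the order of 2 pooled values. The labels and the study's methods state one nominal number of paired-end reads for the sequencing but no total per library, and the files hold no counts, so no counting interval could be set.

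Oxidative phosphorylation moves electrons from NADH through complex I, or from succinate through complex II, to coenzyme Q, then through complex III and cytochrome c to complex IV, which reduces oxygen. Complexes I, III and IV pump protons across the inner membrane, and ATP synthase (complex V) uses the gradient to make ATP. A few core subunits are encoded by mitochondrial DNA, all the others by nuclear genes whose products are imported. White adipocytes hold fewer mitochondria than brown adipocytes but depend on them for lipid synthesis and for the secretion of adipokines.

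Subunit transcripts were mostly higher in 14-3-3ζKO than in wild-type tissue, by a small and similar amount in all 5 complexes. Of the 81 subunits, 73 (90.1%) were higher and 8 lower, with a median difference of 0.44 on the log2(FPKM + 1) scale. Adding 1 FPKM before the logarithm damps differences of genes at low levels. Over all 15245 loci with a mean of both group values of at least 1 FPKM, 53.2% were higher and the median was 0.04. The middle 50% of the subunits lay between 0.26 and 0.58, whereas the middle 50% of all loci lay between -0.27 and 0.39. Summed over the 81 subunits, 21558 FPKM were measured in 14-3-3ζKO tissue and 15676 FPKM in wild-type tissue.

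Few of these differences were large. All 81 subunits and 7 of the 9 other members had a mean of at least 1 FPKM. Of these 88, 19 (21.6%) were higher by 1.5-fold or more on the log2(FPKM + 1) scale, against 17.5% of all loci, a share near that background and so no result about the members. No member was lower by 1.5-fold or more, against 10.5% of all loci. When the 2 groups were rescaled to equal summed FPKM over named loci off the mitochondrial chromosome, a shift of -0.14 in the log2 difference that was chosen after seeing the data, 69 of 80 subunits (86.2%) were still higher, against 42.8% of all loci, and 8 of 87 members (9.20%) were higher by 1.5-fold or more, against 14.3%. Most subunits were thus higher under both scalings, while the count past 1.5-fold lay on either side of the background.

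**Figure D1:**
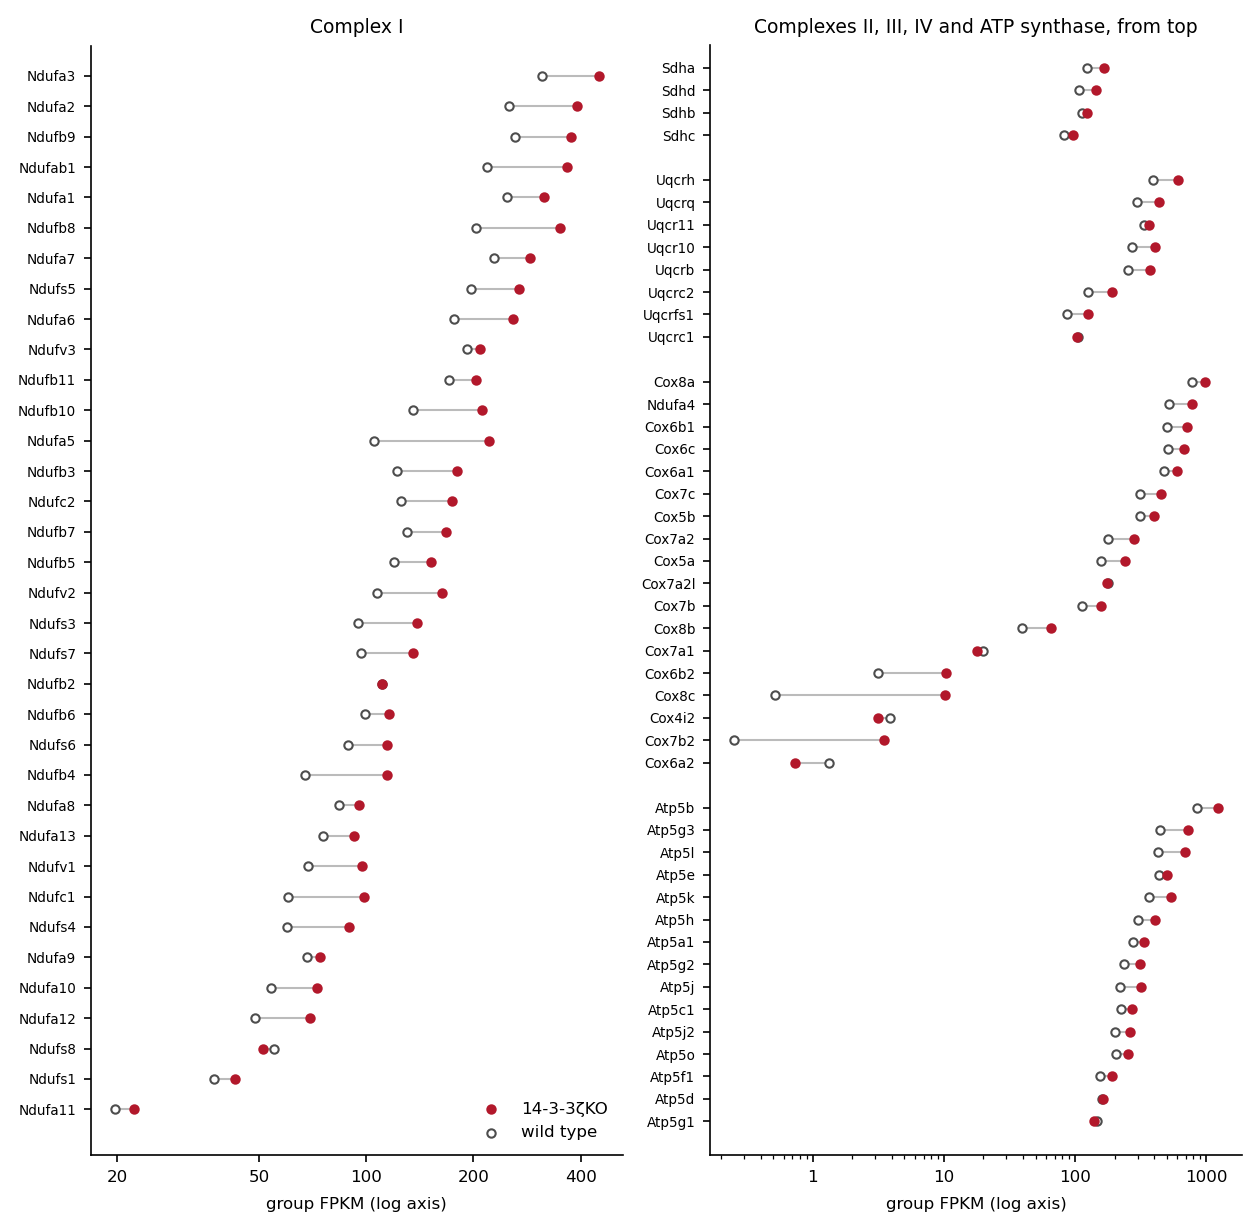
FPKM of 80 subunits on a log axis, 14-3-3ζKO as filled and wild type as open points joined by a line, 1 pooled value per genotype. Complex I is on the left, and complexes II, III, IV and ATP synthase follow from top to bottom on the right. The filled point lies to the right of the open one for 72 of the 80 subunits drawn.

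Complex I, the NADH dehydrogenase, had 36 subunits, of which 34 (94.4%) were higher in 14-3-3ζKO tissue. Their median difference was 0.48, with a range of -0.10 to 1.07, and their median level was 157.6 FPKM in 14-3-3ζKO and 109.0 FPKM in wild-type tissue. The 7 nuclear-encoded core subunits, which carry the flavin and the iron-sulphur clusters and are conserved from bacteria, had a median difference of 0.50. The 29 accessory subunits, which stabilise the enzyme and are largely absent from bacteria, had one of 0.44. By position, the 16 subunits of the matrix arm that oxidises NADH had a median of 0.50 and the 19 of the proton-pumping membrane arm one of 0.42, so neither the core nor an arm stood apart.

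Among single genes of complex I, Ndufa5 (chr6:24468666-24478013, NCBIM37), an accessory subunit of the matrix arm, had the largest difference, with 221 FPKM in 14-3-3ζKO and 105 FPKM in wild-type tissue (1.07). Ndufb4 of the membrane arm had 115 FPKM in 14-3-3ζKO and 67.4 FPKM in wild-type tissue (0.76). Ndufab1, the mitochondrial acyl carrier protein, which sits in both arms and also serves fatty acid and lipoic acid synthesis, had 366 FPKM in 14-3-3ζKO and 218 FPKM in wild-type tissue (0.74).

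Further complex I genes past 1.5-fold were Ndufb8, Ndufc1, Ndufb10, Ndufa2 and Ndufv2, with differences of 0.61 to 0.78. Ndufb8 shares its row with Sec31b and Gm20538, and the locus of Ndufc1 also covers Naa15. Ndufv2, a core subunit with an iron-sulphur cluster, had 163 FPKM in 14-3-3ζKO and 107 FPKM in wild-type tissue (0.61). Its partner in the NADH-oxidising module, the flavin-bearing Ndufv1, had 97.5 FPKM in 14-3-3ζKO and 68.8 FPKM in wild-type tissue (0.50), and the accessory subunit of that module, Ndufv3, had 208 FPKM in 14-3-3ζKO and 192 FPKM in wild-type tissue (0.11). Subunits of the same module therefore did not share a size of difference.

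At the other end, Ndufs8, a core iron-sulphur subunit, was lower, with 51.3 FPKM in 14-3-3ζKO and 55.0 FPKM in wild-type tissue (-0.10). Ndufb2, whose row also lists Adck2, was at 110.4 FPKM in 14-3-3ζKO and 111.0 FPKM in wild-type tissue (-0.01). Ndufa9, a matrix arm subunit near the quinone site, had 73.9 FPKM in 14-3-3ζKO and 68.0 FPKM in wild-type tissue (0.12). Ndufa9 and Ndufv3 were lower rather than higher after rescaling to equal sums.

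The levels of complex I transcripts spanned a wide range in both genotypes. Ndufa3, a small membrane arm subunit, was highest, with 449 FPKM in 14-3-3ζKO and 311 FPKM in wild-type tissue (0.53), followed by Ndufa2 with 390 FPKM in 14-3-3ζKO and 252 FPKM in wild-type tissue (0.63). Ndufa11 was lowest, with 22.3 FPKM in 14-3-3ζKO and 19.7 FPKM in wild-type tissue (0.17). FPKM are scaled to transcript length, so these levels can be set side by side between genes.

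Complex II, succinate dehydrogenase, belongs to the tricarboxylic acid cycle as well as to the respiratory chain and is encoded entirely in the nucleus. All 4 subunits were higher, by a median of 0.33, and none reached 1.5-fold. Sdha, the flavoprotein that oxidises succinate, had 167 FPKM in 14-3-3ζKO and 123 FPKM in wild-type tissue (0.43). Sdhb, the iron-sulphur subunit bound to it, had 123 FPKM in 14-3-3ζKO and 114 FPKM in wild-type tissue (0.10), and it was lower after rescaling. The membrane anchors differed in the same way, with Sdhd at 144 FPKM in 14-3-3ζKO and 107 FPKM in wild-type tissue (0.43), and Sdhc at 97.3 FPKM in 14-3-3ζKO and 82.8 FPKM in wild-type tissue (0.23).

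Complex III, the cytochrome bc1 complex, had 8 subunits under the rule, 7 of them higher (87.5%), with a median of 0.56. Uqcrh, the hinge protein at the docking site of cytochrome c, was highest in level and in difference, with 609 FPKM in 14-3-3ζKO and 391 FPKM in wild-type tissue (0.64). The core proteins, which face the matrix and resemble processing peptidases, did not move as a pair. Uqcrc2 had 192 FPKM in 14-3-3ζKO and 126 FPKM in wild-type tissue (0.60), with a locus that also covers Pdzd9, while Uqcrc1 had 103 FPKM in 14-3-3ζKO and 105 FPKM in wild-type tissue (-0.02).

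The Rieske iron-sulphur protein Uqcrfs1, one of the redox subunits of complex III, had 126 FPKM in 14-3-3ζKO and 86.4 FPKM in wild-type tissue (0.54). The small subunits Uqcr10, Uqcrb and Uqcrq had differences of 0.55 to 0.58. Uqcr10 lay just below 1.5-fold, with 405 FPKM in 14-3-3ζKO and 270 FPKM in wild-type tissue (0.58). Uqcr11, another small subunit, had the smallest positive difference of the complex, with 369 FPKM in 14-3-3ζKO and 334 FPKM in wild-type tissue (0.14).

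Complex IV, cytochrome c oxidase, had 18 members, counting Ndufa4, which was first assigned to complex I and is now known as a complex IV subunit. Of these, 14 (77.8%) were higher, with a median of 0.49. The 11 subunits found in most tissues had a median of 0.48 and 10 were higher. The 7 isoforms restricted to certain tissues ranged from -0.42 to 2.88, with 4 higher and 3 lower, so the spread of complex IV came from these isoforms.

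Of the general subunits, Cox7a2 had the largest difference, with 280 FPKM in 14-3-3ζKO and 179 FPKM in wild-type tissue (0.65). Ndufa4 had 781 FPKM in 14-3-3ζKO and 516 FPKM in wild-type tissue (0.60), just above 1.5-fold, and Cox5a had 238 FPKM in 14-3-3ζKO and 159 FPKM in wild-type tissue (0.58), just below it. Cox8a was the most abundant, with 984 FPKM in 14-3-3ζKO and 783 FPKM in wild-type tissue (0.33). Cox7a2l, a relative of Cox7a2 that joins complexes III and IV into supercomplexes, was the lone general subunit that was lower, with 175 FPKM in 14-3-3ζKO and 180 FPKM in wild-type tissue (-0.04).

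**Figure D2:**
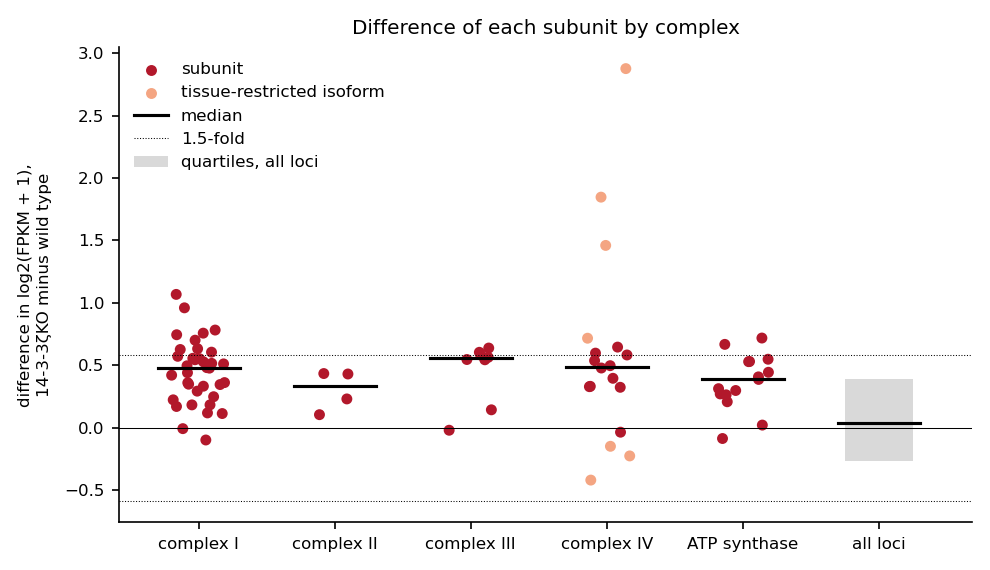
Difference in log2(FPKM + 1), 14-3-3ζKO minus wild type, for each subunit by complex. Lines are medians, lighter points are tissue-restricted isoforms of complex IV, the grey box holds the middle 50% of 15245 loci and dotted lines mark 1.5-fold. The 5 medians lie between 0.33 and 0.56, against 0.04 for all loci, and the points outside the range from -0.10 to 1.07 are all restricted isoforms.

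The restricted isoforms did not share a direction. Cox8c, Cox7b2 and Cox6b2 are known from testis. Cox8c (chr12:104137516-104138744) had 10.1 FPKM in 14-3-3ζKO and 0.515 FPKM in wild-type tissue (2.88). Cox7b2 had 3.50 FPKM in 14-3-3ζKO and 0.252 FPKM in wild-type tissue (1.85). Cox6b2 had 10.4 FPKM in 14-3-3ζKO and 3.16 FPKM in wild-type tissue (1.46), in a row shared with Fam71e2. These were the 3 largest differences of all members. Cox8c and Cox7b2 were below 1 FPKM in wild-type tissue and passed the level filter only through their 14-3-3ζKO values. Both are among the members counted past 1.5-fold.

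Male germ cell transcripts moved with them. All 8 germ cell markers were higher by 1.5-fold or more, with a median of 3.02 and a sum of 636 FPKM in 14-3-3ζKO and 68.2 FPKM in wild-type tissue. Transition protein Tnp1 had 145 FPKM in 14-3-3ζKO and 5.79 FPKM in wild-type tissue, and protamine Prm1 had 156 FPKM in 14-3-3ζKO and 10.7 FPKM in wild-type tissue. The 6 epididymal markers were all lower, with a median of -0.90 and a sum of 3323 FPKM in 14-3-3ζKO and 6079 FPKM in wild-type tissue. None of these markers was at 0 in either genotype, and their part in the difference of the testis isoforms was not tested. The split of the germ cell from the epididymal markers was made after seeing the data.

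The isoforms of heart and skeletal muscle went the other way or varied. Cox7a1, known from muscle and brown fat, had 17.96 FPKM in 14-3-3ζKO and 20.01 FPKM in wild-type tissue (-0.15), while Cox8b, of the same tissues, had 65.9 FPKM in 14-3-3ζKO and 39.7 FPKM in wild-type tissue (0.72). Cox6a2 had 0.733 FPKM in 14-3-3ζKO and 1.32 FPKM in wild-type tissue (-0.42). Its locus is 74.6 times as long as the annotated gene and covers Itgad, an integrin gene of myeloid cells. Cox4i2, the isoform of lung and of hypoxia, had 3.15 FPKM in 14-3-3ζKO and 3.86 FPKM in wild-type tissue (-0.23).

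Markers of striated muscle were near the floor of the data, while those of brown and beige adipocytes were mixed. Of 13 striated muscle rows, 6 passed 1 FPKM, and none exceeded 2.13 FPKM in either genotype. The creatine kinase Ckm had 0.0654 FPKM in 14-3-3ζKO and 0.218 FPKM in wild-type tissue, and Myh7 was listed at 0 in wild-type tissue. Of 13 brown and beige adipocyte rows, 8 passed, with 3 higher, 5 lower and a median of -0.32. Their sum was 116 FPKM in 14-3-3ζKO and 58.9 FPKM in wild-type tissue. Most of both sums came from the row of Cpt1b, so the gap between the sums is not shared by the list. Ucp1, the uncoupling protein of brown fat, had 0.653 FPKM in 14-3-3ζKO and 2.57 FPKM in wild-type tissue, and Zic1 was listed at 0 in 14-3-3ζKO tissue. Cpt1b, the muscle carnitine palmitoyltransferase, had 97.1 FPKM in 14-3-3ζKO and 38.3 FPKM in wild-type tissue, in a row shared with Chkb. The lipid droplet protein Cidea had 10.6 FPKM in 14-3-3ζKO and 5.03 FPKM in wild-type tissue. The part of such cells in the values of Cox7a1 and Cox8b was not tested.

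**Figure D3:**
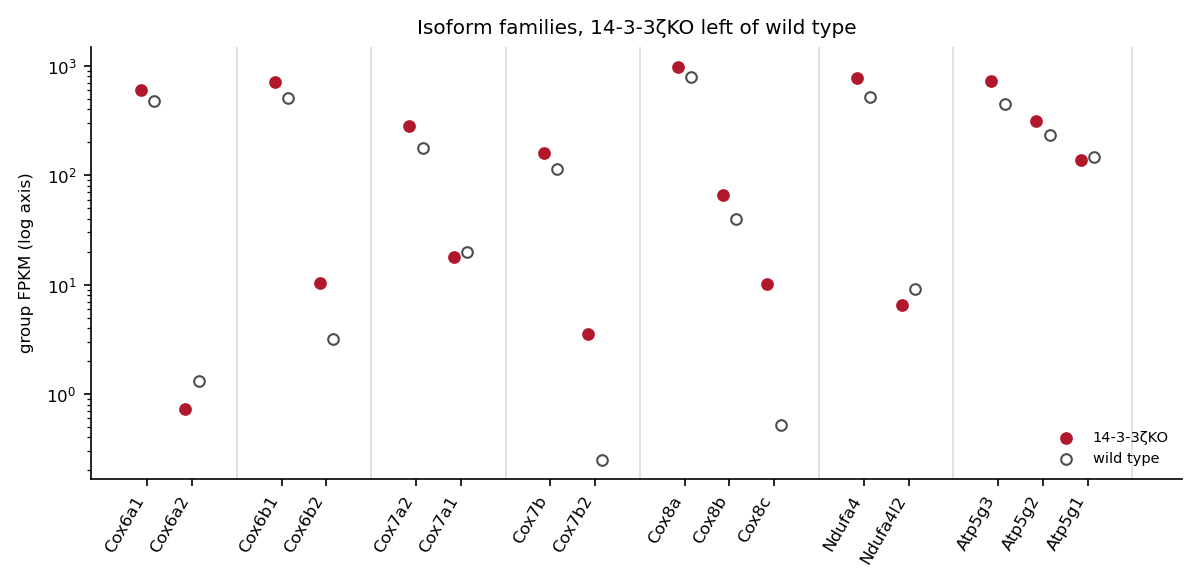
FPKM on a log axis of the isoforms of 7 subunit families, 14-3-3ζKO as filled points to the left of wild type as open points, 1 pooled value per genotype. The general isoform is highest in every Cox family drawn in both genotypes, and the testis isoforms Cox8c and Cox7b2 show the widest gaps between genotypes.

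Within each Cox family compared, the general isoform supplied most of the transcripts in both genotypes. The Cox4 family was not compared, as Cox4i1 was not analysed, and Cox7a2l was not counted with Cox7a1 and Cox7a2. Cox7a1 made up 6.02% of the Cox7a1 and Cox7a2 sum in 14-3-3ζKO and 10.1% in wild-type tissue. Cox8b made up 6.22% of the Cox8 sum in 14-3-3ζKO and 4.82% in wild-type tissue, and Cox8c 0.955% in 14-3-3ζKO and 0.0626% in wild-type tissue. The large differences of the testis isoforms thus added little to the summed level of the complex.

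ATP synthase had 15 subunits, of which 14 (93.3%) were higher, with a median of 0.39 and a range of -0.09 to 0.72. The F1 subunits Atp5b and Atp5a1 had a median of 0.40. Atp5b, in a row shared with Baz2a and Ptges3, was the most abundant member, with 1227 FPKM in 14-3-3ζKO and 849 FPKM in wild-type tissue (0.53). Atp5a1 had 334 FPKM in 14-3-3ζKO and 278 FPKM in wild-type tissue (0.26). The 3 central stalk subunits that turn inside F1 had the smallest median, 0.21, and the delta subunit Atp5d, with 163 FPKM in 14-3-3ζKO and 161 FPKM in wild-type tissue (0.02), was lower both after centring on the median of all loci and after rescaling.

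The 4 peripheral stalk subunits had a median of 0.38, and the 3 small membrane subunits one of 0.55. Atp5l, subunit g of the dimer interface, had 685 FPKM in 14-3-3ζKO and 431 FPKM in wild-type tissue (0.67). Atp5k, subunit e, had 537 FPKM in 14-3-3ζKO and 367 FPKM in wild-type tissue (0.55) in a row shared with Mfsd7a. Atp5j, coupling factor 6 of the peripheral stalk, had 319 FPKM in 14-3-3ζKO and 221 FPKM in wild-type tissue (0.53), and its locus also covers Gabpa.

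The c-ring, the rotor through which protons pass, is built from 1 mature peptide that is encoded by 3 genes with different targeting sequences. These genes differed from each other. Atp5g3 (chr2:73746504-73749383) had 732 FPKM in 14-3-3ζKO and 445 FPKM in wild-type tissue (0.72), the largest difference of ATP synthase. Atp5g2 had 312 FPKM in 14-3-3ζKO and 235 FPKM in wild-type tissue (0.41). Atp5g1 (chr11:95930166-95936984) was the one ATP synthase subunit that was lower, with 139 FPKM in 14-3-3ζKO and 148 FPKM in wild-type tissue (-0.09). Atp5g3 thus supplied 61.9% of the c-ring transcripts in 14-3-3ζKO and 53.8% in wild-type tissue, and Atp5g1 11.7% in 14-3-3ζKO and 17.8% in wild-type tissue.

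Since the 3 genes make the same ring, their promoters are shown, as the 100 bases before the RefSeq transcription start (5′ to 3′ on the gene's strand, build GRCm38.p6). Capitals mark a match to one of 4 motifs searched on both strands: NRF1 (GCGCATGCG), the ETS family (CCGGAAGT), YY1 (AAGATGGCG) and ERR (TCAAGGTCA).
Atp5g3 promoter, chr2:73911327-73911426, minus strand: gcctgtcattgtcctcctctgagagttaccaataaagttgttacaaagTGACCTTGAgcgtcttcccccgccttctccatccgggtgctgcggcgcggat
Atp5g2 promoter, chr15:102671048-102671147, minus strand: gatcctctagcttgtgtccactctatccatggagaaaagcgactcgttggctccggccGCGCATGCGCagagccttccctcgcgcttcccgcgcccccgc
Atp5g1 promoter, chr11:96075632-96075731, minus strand: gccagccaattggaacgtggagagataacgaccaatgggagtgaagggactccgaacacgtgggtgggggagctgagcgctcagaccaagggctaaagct
Atp5g3 held an ERR match on the opposite strand, Atp5g2 a palindromic NRF1 match on both strands, and Atp5g1 none of the 4 motifs in the window. The differences of 0.72, 0.41 and -0.09 stood beside 3 different promoters, and the part of the promoters in them was not tested.

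NRF1, the ETS factor GABP, YY1 and the estrogen-related receptors (ERR) are known regulators of respiratory chain genes, and their motifs were counted in windows of 250 bases before to 50 bases after the start. RefSeq promoters were found for 68 of the 81 subunits. NRF1 matched in 8 (11.8%), against 1.95% of all 27025 promoters and 3.69% of the 10180 promoters of genes with a mean of at least 1 FPKM here. YY1 matched in 7 (10.3%), against 1.64% of all and 3.33% of expressed promoters, and ERR in 2 (2.94%), against 0.466% of all and 0.324% of expressed promoters. The ETS motif matched in 5 (7.35%), against 4.31% of all and 8.38% of expressed promoters. At least 1 of the 4 was found in 21 (30.9%), against 7.93% of all and 14.7% of expressed promoters. These are letter matches and show no binding.

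Subunits with an NRF1 match had a median difference of 0.25 (8 genes), and those without one 0.48 (60 genes). The other motifs showed smaller gaps or rested on few genes. The medians were 0.44 with (5 genes) and 0.44 without (63 genes) an ETS match, 0.48 with (7 genes) and 0.44 without (61 genes) a YY1 match, and 0.57 with (2 genes) and 0.44 without (66 genes) an ERR match. Genes with a match also stood at the upper end, such as Atp5l (0.67) and Atp5k (0.55) with NRF1 matches and Uqcrh (0.64) with an ETS match. A pair of genes chosen for small differences shows where matches can lie, Ndufa11 with a palindromic NRF1 match and Uqcr11 with an ETS match.
Ndufa11 promoter, chr17:56717662-56717761, plus strand: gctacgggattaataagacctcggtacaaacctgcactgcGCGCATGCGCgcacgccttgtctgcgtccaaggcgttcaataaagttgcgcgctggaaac
Uqcr11 promoter, chr10:80406822-80406921, minus strand: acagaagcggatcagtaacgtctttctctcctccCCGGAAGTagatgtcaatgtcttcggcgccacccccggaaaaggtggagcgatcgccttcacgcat
Ndufa11 differed by 0.17 and Uqcr11 by 0.14, below the medians of complexes I and III. Uqcr11 also held an NRF1 match that crosses its start and lies partly outside the bases shown.

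The members that encode no subunit were closer to the background, with a median of 0.26 over the 7 that passed 1 FPKM. The complex I assembly factors Ndufaf1, Ndufaf2, Ndufaf3 and Ndufaf4 were higher by 0.25 to 0.41, with Ndufaf4 at 14.1 FPKM in 14-3-3ζKO and 10.4 FPKM in wild-type tissue. Atp5s and Atp5sl were higher by 0.43 and 0.23. Ndufa4l2, a paralogue of Ndufa4 known to be induced in hypoxia, had 6.48 FPKM in 14-3-3ζKO and 9.04 FPKM in wild-type tissue (-0.42), and its locus also covers Shmt2. The paralogue Atp5l2, with 0.377 FPKM in 14-3-3ζKO and 0.1005 FPKM in wild-type tissue, and the pseudogene Atp5l-ps1, with 0.0353 FPKM in 14-3-3ζKO and 0.0717 FPKM in wild-type tissue, did not pass 1 FPKM.

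The lists of factors that assemble or serve the complexes had smaller median differences than the subunits chosen by name. These lists also held proteins counted as subunits whose symbols fall outside the rule. They were Cyc1 of complex III (0.28) and Usmg5 (0.45) and 2010107E04Rik (0.43) of ATP synthase, so the lists do not separate factors from subunits cleanly. Of 9 complex I assembly factors, among them the 4 Ndufaf genes, 6 were higher, with a median of 0.20. Acad9 had 28.3 FPKM in 14-3-3ζKO and 33.3 FPKM in wild-type tissue. Of 12 complex IV assembly factors, 7 were higher, with a median of 0.09, and Cox15, which makes heme A for the enzyme, had 10.8 FPKM in 14-3-3ζKO and 18.6 FPKM in wild-type tissue (-0.74). Of 9 factors of complexes II and III and cytochrome c, 7 were higher, with a median of 0.28. Here cytochrome c itself, Cycs, had 104 FPKM in 14-3-3ζKO and 73.3 FPKM in wild-type tissue, and cytochrome c1, Cyc1, had 128 FPKM in 14-3-3ζKO and 105 FPKM in wild-type tissue. Of 9 regulators and carriers of ATP synthase, 8 were higher, with a median of 0.13, and the inhibitor Atpif1 had 132 FPKM in 14-3-3ζKO and 165 FPKM in wild-type tissue (-0.32).

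The partner subunits encoded by mitochondrial DNA showed a larger gap. All 10 rows were higher by 1.5-fold or more, with a median of 1.04 and a range of 0.88 to 1.37. Cytochrome c oxidase subunit mt-Co1 had 22688 FPKM in 14-3-3ζKO and 11222 FPKM in wild-type tissue, and the complex I subunit mt-Nd3 had 7168 FPKM in 14-3-3ζKO and 2772 FPKM in wild-type tissue. Neighbouring genes of mitochondrial DNA are cut from shared transcripts, so these rows are not independent.

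Other mitochondrial lists lay between the subunits and the background. In the tricarboxylic acid cycle 14 of 17 genes were higher, with a median of 0.24, and Fh1, fumarate hydratase, had 88.3 FPKM in 14-3-3ζKO and 55.4 FPKM in wild-type tissue. In import and cristae 14 of 17 were higher, with a median of 0.14, and the import receptor Tomm20 had 103 FPKM in 14-3-3ζKO and 68.4 FPKM in wild-type tissue. In coenzyme Q synthesis 11 of 11 were higher, with a median of 0.16, and Coq7, a hydroxylase of the pathway, had 51.7 FPKM in 14-3-3ζKO and 24.9 FPKM in wild-type tissue. Mitochondrial ribosomal proteins, a group added after seeing the data, had a median of 0.09 with 50 of 73 higher.

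Regulators of mitochondrial biogenesis did not share a direction. Of 13 rows past 1 FPKM, 9 were higher, with a median of 0.35. Tfam, which packages and transcribes mitochondrial DNA, had 27.1 FPKM in 14-3-3ζKO and 19.6 FPKM in wild-type tissue, and the coactivator Pprc1 had 14.0 FPKM in 14-3-3ζKO and 8.84 FPKM in wild-type tissue. Esrra, the ERR alpha receptor, had 14.1 FPKM in 14-3-3ζKO and 17.1 FPKM in wild-type tissue. Nrf1 appeared in 2 rows, with 5.09 FPKM in 14-3-3ζKO and 1.95 FPKM in wild-type tissue in one and 7.05 FPKM in 14-3-3ζKO and 7.60 FPKM in wild-type tissue in the other. The coactivator Ppargc1a was at 1.05 FPKM in 14-3-3ζKO and 0.839 FPKM in wild-type tissue, below the level filter.

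**Figure D4:**
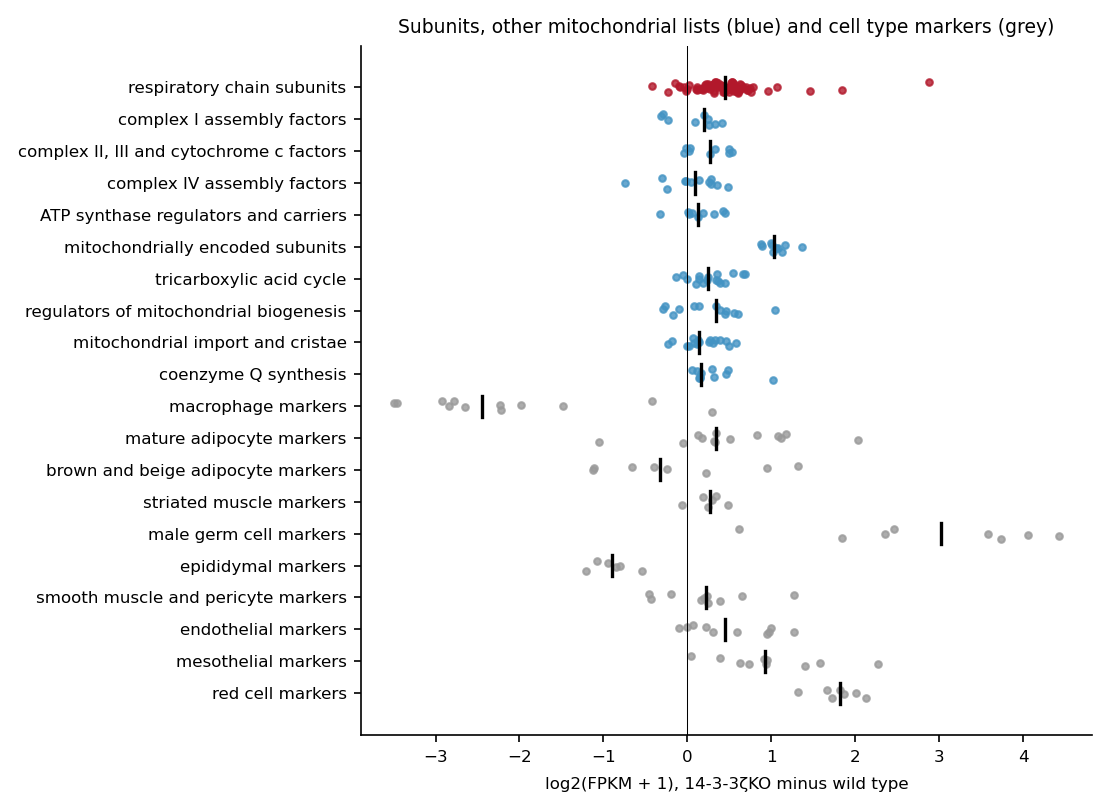
Difference in log2(FPKM + 1), 14-3-3ζKO minus wild type, of each gene with a mean of at least 1 FPKM, by list, with the list median as a line. The 81 subunits (red) have a median of 0.44, the mitochondrially encoded subunits one of 1.04, and the macrophage (-2.44) and male germ cell (3.02) markers lie farthest apart.

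Length and level of the transcripts moved with the differences. Subunit genes are short and abundant, and over all loci of 500 bases or more the median difference fell with length. The 482 loci under 500 bases broke this order, with a median of 0.09. Over all loci, the median difference was 0.19 for 985 loci whose longest annotated transcript had from 500 to under 1000 bases, 0.00 for 5366 loci from 2000 to under 4000 bases and -0.05 for 4002 loci of 4000 bases or more. The subunits in rows of 1 gene, restricted isoforms aside, had a median of 0.51 (34 genes) from 500 to under 1000 bases, 0.45 (22 genes) from 1000 to under 2000 bases and 0.31 (9 genes) from 2000 to under 4000 bases. In these 3 classes the subunit medians lay above those of all loci of the same length. The shortest and the longest class held 2 subunits each, and in the longest class Atp5g1 (-0.09) lay below the median of the loci. The longest annotated transcript need not be the one that was measured. It had 4715 bases in a locus of 6819 bases for Atp5g1, and 4435 bases in a locus of 4956 bases for Ndufb7. The classes therefore do not give the length by which FPKM were divided.

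Level and length were also combined. Among rows of 1 gene, 33 subunits had at least 100 FPKM and a transcript under 1000 bases, and 33 of 33 were higher, with a median of 0.52. The other 198 loci of that kind had a median of 0.20, with 131 higher. Cytosolic ribosomal proteins, likewise short and abundant and added after seeing the data, had a median of 0.32 with 73 of 78 higher. The part of length and level in the difference of the subunits was not tested.

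**Figure D5:**
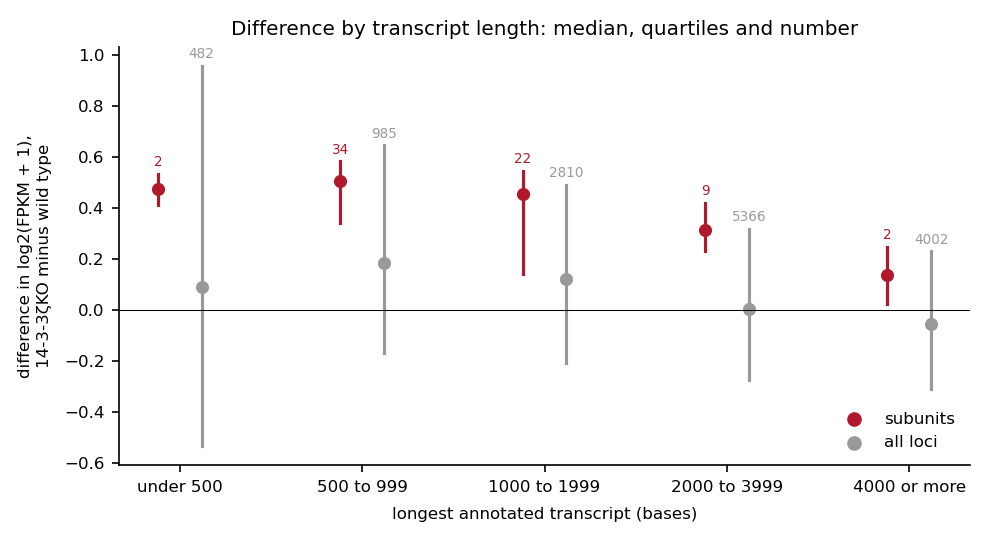
Median (point) and quartiles (line) of the difference in log2(FPKM + 1), 14-3-3ζKO minus wild type, by length of the longest annotated transcript, for subunits in rows of 1 gene (left in each pair) and all loci (right), with the number of genes above. Subunit medians are 0.47, 0.51, 0.45, 0.31 and 0.14 from the shortest to the longest class, against 0.09, 0.19, 0.12, 0.00 and -0.05 for all loci.

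The targeted gene and markers of other cells were read from the same files. Ywhaz, the targeted gene, was 18.7, 38.2, 17.1, 14.5 and 24.1 FPKM in the 5 14-3-3ζKO libraries, against 117.8, 94.2, 100.4, 118.3, 95.4 and 117.4 FPKM in the 6 wild-type libraries. The groups did not overlap, with means of 22.5 ± 9.47 FPKM (SD, n = 5) in 14-3-3ζKO and 107.2 ± 11.8 FPKM (SD, n = 6) in wild-type libraries, a log2 difference of -2.28 ± 0.24 (SE), and p = 0.00216 by an exact permutation test (two-sided), the lowest value that 462 splits can give. This p measures the spread between samples that the labels only number. Values per library were given for 86 loci only, none a member, a short list that need not stand for all loci. Of these 86, 66 were lower in 14-3-3ζKO tissue. In the pooled values, 7134 of 15245 loci past 1 FPKM were lower. In 64 of the 66, wild-type replicates 1, 3 and 4 stood above the 8 other libraries. The members cannot be given without these 3 libraries, because their values are pooled.

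Of 12 macrophage markers, 11 were lower, with a median of -2.44 and a sum of 598 FPKM in 14-3-3ζKO and 3630 FPKM in wild-type tissue. Cd68 was 31.1 to 56.9 FPKM in 14-3-3ζKO libraries, against 461, 84.9, 499, 476, 72.5 and 41.8 FPKM in the wild-type libraries. Of 13 mature adipocyte rows, from 12 genes with Car3 in 2 rows, 11 were higher, with a median of 0.34. Their sum was 72073 FPKM in 14-3-3ζKO and 35273 FPKM in wild-type tissue. Most of both sums came from Fabp4, Car3 and Cfd, so the gap between the sums is not shared by the whole list. Fabp4 had 31136 FPKM in 14-3-3ζKO and 13823 FPKM in wild-type tissue. The lower rows were Plin1, with 232 FPKM in 14-3-3ζKO and 241 FPKM in wild-type tissue, and Lep, with 278 FPKM in 14-3-3ζKO and 579 FPKM in wild-type tissue (-1.05). The adipocyte markers, which label the tissue, ranged from -1.05 to 2.03, with the middle 50% between 0.17 and 1.08.

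Other cell markers differed as well. Mesothelial markers were higher in 10 of 10 genes (median 0.92, sums of 605 FPKM in 14-3-3ζKO and 193 FPKM in wild-type tissue), endothelial markers in 8 of 10 (0.45, 509 FPKM in 14-3-3ζKO and 293 FPKM in wild-type tissue), smooth muscle and pericyte markers in 7 of 10 (0.22, 342 FPKM in 14-3-3ζKO and 231 FPKM in wild-type tissue) and red cell markers in 7 of 7 past 1 FPKM (1.83, 5716 FPKM in 14-3-3ζKO and 1634 FPKM in wild-type tissue). No marker of these lists was at 0. The part of the cell makeup in the difference of the subunits was not tested.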

How the data were processed

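RNA of gonadal white adipose tissue was sequenced by the authors from 5 14-3-3ζKO and 6 wild-type samples, grouped here by their titles. According to the submitters' processing notes, reads were aligned with TopHat2 2.0.11 to build NCBIM37 and quantified with Cufflinks 2.2.0 and Cuffdiff. The scaling between libraries, the sharing of reads between gene copies such as processed pseudogenes, and the use of strand in counting were not given in the sources used here. FPKM were deposited by the authors as 1 value per genotype for 42815 loci and FPKM per library for 86 loci. The deposited table also holds the authors' own fold changes, test statistics, p-values and q-values, which were not used.

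Differences were computed as log2(FPKM + 1) in 14-3-3ζKO minus wild type for loci with a mean of both group values of at least 1 FPKM, and counted at 1.5-fold. Such folds understate changes of low genes. Loci are 1-based. Of the 90 members, 6 share a row with other genes, and the loci of 25 overlap another protein-coding gene, so reads of neighbours may enter. Lengths came from an annotation of the same build, in which all 90 members were found. Ywhaz was compared over libraries with an exact permutation test of the difference of means.

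The members, gene lists and motifs were chosen with earlier results of these data known. Named members were the 3 highest and 3 lowest differences and 2 highest levels of each complex, all complex II subunits, isoform families and members past or nearest 1.5-fold. Other lists gave some of their 2 largest differences and 2 highest levels. Cd68, Ucp1, Ckm, Acad9, Atpif1, Cyc1, Plin1, Lep, Ndufv1, Uqcrfs1, Ppargc1a and genes of the motifs' factors were added with their values in view. The alternatives comprised a pseudocount of 0.1, level filters of 0 and 10 FPKM, folds of 1.25 and 2, centring, rows of 1 gene and 1 row per symbol, and, added after seeing the data, rescaling to equal sums, leaving out overlapped rows or restricted isoforms, and Ndufa4 counted with complex I. 1 member is counted but not reported singly here. A median that moved by more than 0.1 was counted as changed. Scripts were tested on simulated data (python 3.11.15, pandas 2.3.3, numpy 2.4.6, scipy 1.17.1, matplotlib 3.10.9).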

Additional observations from a re-analysis of the deposited data

How the results depend on the processing

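Of 74 alternative values, 63 stayed within the limits set, 10 moved, 1 lost its call and 0 reversed. Not all of these values could move. Each symbol had a single row, and all 81 subunits passed the level filter. The settings of 1 row per symbol and of no level filter could therefore change no median. Centring took 0.04 from every median, less than the limit of 0.1. Rescaling to equal summed FPKM lowered the medians to 0.35 for complex I, 0.20 for complex II, 0.42 for complex III, 0.36 for complex IV and 0.25 for ATP synthase, while the median of all loci became -0.08, and left 8 members higher by 1.5-fold or more. Over all alternatives the medians ranged from 0.35 to 0.49, 0.20 to 0.33, 0.42 to 0.56, 0.36 to 0.50 and 0.25 to 0.39 in the same order. The milder fold threshold counted 59 members higher and 2 lower, a fold of 2 counted 4 higher, and a pseudocount of 0.1 FPKM counted 1 lower (Cox6a2). The share of all loci was not computed at these settings, so the counts are no result about the members. Leaving out each library in turn gave log2 differences of -2.48 to -2.15 for Ywhaz (exact permutation p of 0.00476 to 0.00794). With the replicate number as a block, over 5 pairs, the Ywhaz difference was -2.25 with an exact sign-flip p of 0.0625, the smallest that 5 pairs allow. Same-numbered libraries correlated by -0.49 to 0.57 over the loci with values per library other than Ywhaz. These correlations show no pairing shared by all numbers but cannot exclude one. In most of these loci wild-type replicates 1, 3 and 4 stood above the other libraries. Depth per library and values per library of the members were not given in the files used here, so no alternative without a library could be computed for them.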
